A study of Mus musculus with 3 samples.

Results

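The cells described here are mouse embryonic stem cells of the E14 line that had been exposed to cycloheximide for 6 h, and the measure is how much they differed from one another. Members were the barcodes of the 6 h library with at least 15000 UMIs (unique molecular identifiers, each counting 1 captured RNA molecule) and with 1 to 20% of those UMIs from mitochondrially encoded genes. This rule found 2554 cells among 6480 cells found by the same rule in the whole series. The series held 3 libraries: cells given cycloheximide at 250 µg/mL for 3 h, cells given the same dose for 6 h, and control cells given ethanol for 6 h. Ethanol at 0.007% was present in all 3, exposure began 24 h after seeding, and all cells grew in serum with leukemia inhibitory factor. Each condition was 1 library, made from cells frozen before barcoding, so the cells of a library share its culture and preparation. No p-value is given, because cells are not replicates of a condition.

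Cycloheximide binds the ribosome and stops translation elongation. Transcripts of short half-life that need new protein, or translation itself, for their decay can accumulate under it, among them immediate early genes and host genes of small nucleolar RNAs (snoRNAs). Cells of a growing embryonic stem cell culture are also known to differ in cell cycle stage, in signalling state and in the odd differentiated cell.

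The 6 h library held 150987519 UMIs, of which the 2554 cells held 92.9%. UMIs per cell ran from 15030 through a median of 46200 to 247458, and the mitochondrial share ran from 1.00% through a median of 2.89% to 12.5%. At the edge of the rule, 33 barcodes had 12000 to 15000 UMIs and 45 had 15000 to 18000. Among barcodes with enough UMIs, 8 fell below the mitochondrial minimum and 0 above the maximum. The other libraries held 127601369 UMIs (control, 2187 cells) and 115188502 UMIs (3 h, 1739 cells). Member barcodes were shared with the control in 3 cases and with the 3 h library in 1 case. Doublets were not called, and 266 cells lay above 2 times the median UMI count. Levels, variation and correlations below come from cells thinned to 15000 UMIs each, so that depth is equal in all cells.

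Stem cell genes were found throughout, as the label states. Pou5f1, which encodes the pluripotency factor Oct4, was found in 99.8% of cells, and all 2554 cells had at least 4 of 22 pluripotency genes. Marker lists for trophectoderm, mesoderm, neural cells, 2-cell-like cells and fibroblasts had 0 cells with 4 or more listed genes. This allows a share of up to 0.144% for cells with that many (95% exact Clopper-Pearson interval, counting error only). It sets no limit for cells with fewer listed genes. Primitive endoderm genes formed the exception, but the lists were not equally strict. Sparc, 1 of the 9 endoderm genes, was found in 82.2% of all cells, and the mesoderm and neural lists held only 6 genes each. For trophectoderm 5 cells had 3 listed genes, with a highest sum of 54 UMIs in a cell, and for neural cells 20 cells had 3. At least 4 of the 9 primitive endoderm genes were found in 13 cells, or 0.509% (0.271 to 0.869%). The same count gave 19 control cells (0.869%) and 10 cells at 3 h (0.575%).

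The 4 marker genes differed widely in how they were spread over cells. Pou5f1 ran from 0 through a median of 7 to 19 UMIs per cell. Gas5, a snoRNA host gene whose spliced RNA is a known target of nonsense-mediated decay, ran from 0 through 14 to 47. Gadd45g, a growth arrest and DNA damage inducible gene, ran from 0 through 3 to 50, and 76.0% of cells had a UMI of it. Cdkn1a, which encodes the cell cycle inhibitor p21 and is a p53 target, ran from 0 through 0 to 13 and was found in 46.1% of cells. Pou5f1 and Gas5 thus sat around a single peak, whereas Gadd45g and Cdkn1a had many cells at 0 and a long upper tail.

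**Figure D1:**
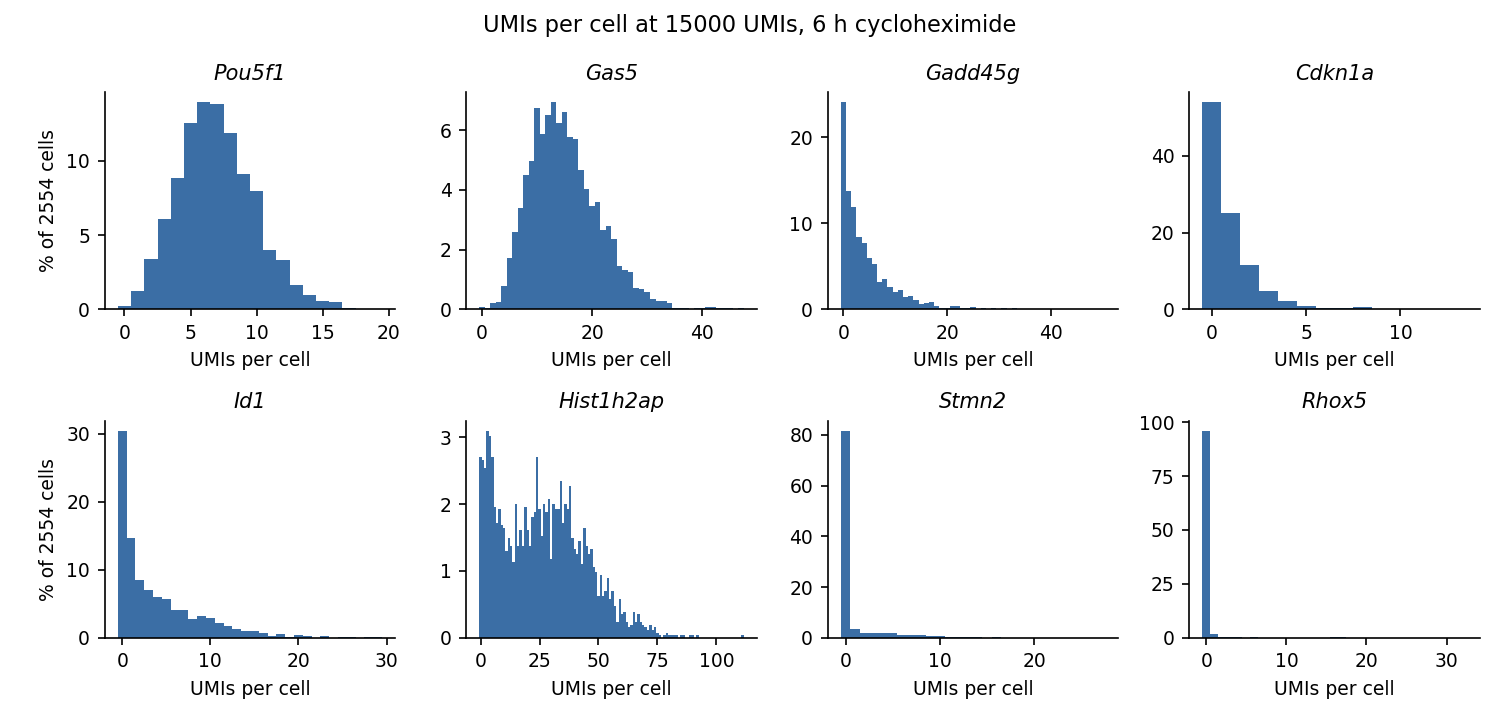
Share of the 2554 cells (vertical axis, percent) with each number of UMIs (horizontal axis) after thinning to 15000 UMIs per cell, for 8 genes after 6 h of cycloheximide; every bar is 1 UMI wide. Pou5f1 and Gas5 have 1 central peak at medians of 7 and 14, Gadd45g, Cdkn1a and Id1 have their highest bar at 0, Hist1h2ap is spread broadly from near 0 to above 50, and Stmn2 and Rhox5 are 0 in most cells.

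Variation beyond counting error was measured as excess squared CV, which is the variance minus the mean, divided by the squared mean. It was taken for genes whose mean reached 0.2 UMIs per cell. A value of 0 means that the cells differ no more than random sampling of equal cells would give. Over 6912 genes the median was 0.0831, with quartiles of 0.0330 and 0.177. A value of at least 0.5 was reached by 354 genes, or 5.12% of those measured. The same count gave 232 of 6380 genes in the control (3.64%) and 319 of 6847 genes at 3 h (4.66%). Of the 354 genes, 134 also reached 0.5 in the control, which is 37.9% of the 6 h list and 57.8% of the control list. Only 247 of the 354 reached the mean of 0.2 UMIs in the control, and the 134 are 54.3% of those. The overlap with the 3 h library was 204 genes, 57.6% of the 6 h list, 63.9% of the 3 h list and 67.3% of the 303 that reached that mean at 3 h. The group was made up largely of rare transcripts, since 300 of the 354 had a mean under 1 UMI. Without the 1% of cells highest in each gene, 76 of the 354 remained at or above 0.5. Those cells were picked by the gene's own count, so a lower value, here and below, is in part set by that choice. Pou5f1 was at 0.029 and Gas5 at 0.106, both far below 0.5, while Gadd45g was at 1.41 and Cdkn1a at 1.48. Cdkn1a stood at 1.26 among control cells and at 5.14 among 3 h cells. The mean of Gadd45g was 4.44 UMIs at 6 h, against 1.43 at 3 h and 0.022 in control cells, and its excess was 4.71 at 3 h against 1.41 at 6 h.

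**Figure D2:**
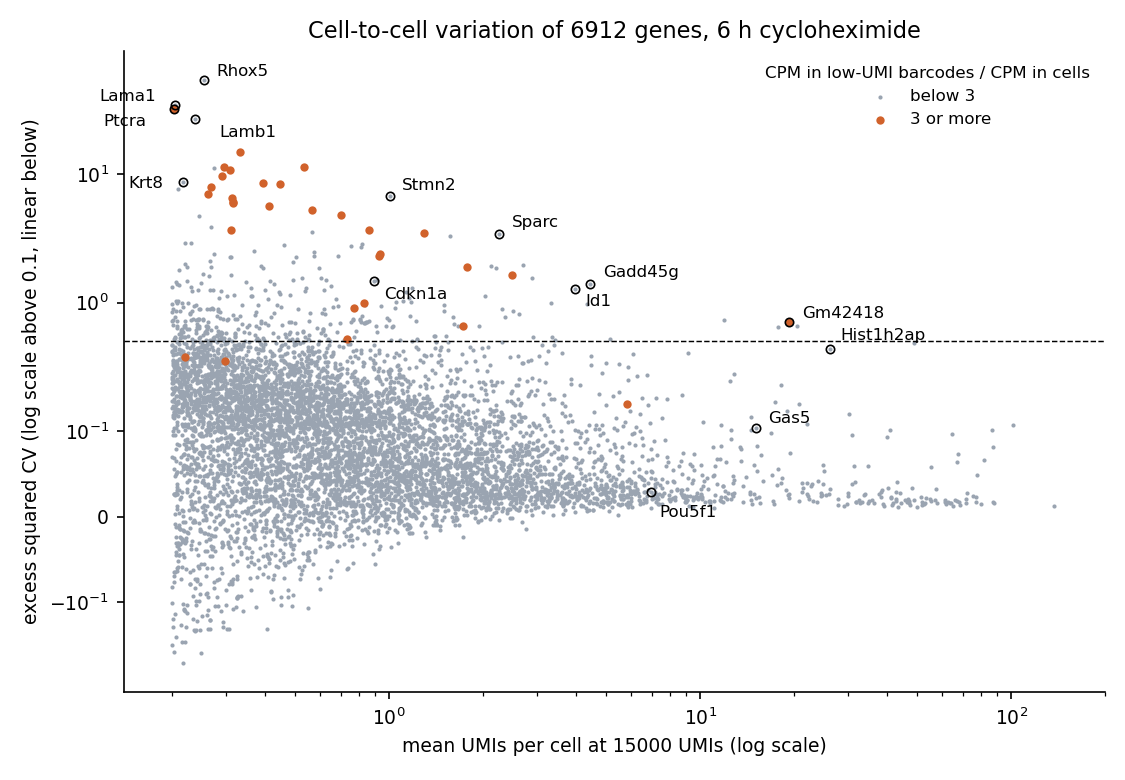
Excess squared CV (vertical axis) against mean UMIs per cell at 15000 UMIs (horizontal axis, log scale) for 6912 genes after 6 h of cycloheximide; orange points have a CPM in barcodes of 10 to 100 UMIs at least 3 times that in cells, and the dashed line is 0.5. Rhox5, Lama1, Ptcra and Lamb1 lie highest, Gadd45g and Id1 stand out among genes of several UMIs per cell, and 28 of the 31 orange genes lie above the line.

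The 20 genes of highest excess squared CV ran from 54.2 for Rhox5 to 5.92 for Gm16196, and the next gene, Sag, had 5.63. All 20 had a mean of 0.204 to 1.00 UMIs and were found in 4.07 to 24.0% of cells. All 20 were also past 0.5 in the control and at 3 h, and 12 had a higher value at 6 h than in both. As the 20 were picked by their value at 6 h, that choice favours higher values there. For 13 of the 20, the CPM in barcodes of 10 to 100 UMIs, which carry free RNA, was at least 3 times that in the cells. Over all 6912 genes this held for 31 (0.448%), of which 28 were among the 354 genes past 0.5 and 3 among the other 6558. Examples were Ptcra, the pre-T-cell receptor alpha gene, at 95.1 CPM in those barcodes and 14.1 CPM in cells, and Dqx1 at 148 and 16.2 CPM. Olfr889, an olfactory receptor gene, was at 141 and 19.7 CPM, and Aldh1a3, a retinaldehyde dehydrogenase gene, at 142 and 19.3 CPM. Others were Xaf1, Gm26885, 1700120C14Rik, Gm13075, Lhfpl4, Klhl24, Gmcl1 and Gm16196. Outside the 20, the ratio was highest for Lars2 (245), Gm42418 (98.4) and AY036118 (72.3), chosen after their values were seen. The part of free RNA in the variation of these genes between cells was not tested.

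The other 7 genes of the 20 were Rhox5, Lama1, Lamb1, Gm45184, Krt8, Plk2 and Stmn2, with ratios of free to cell CPM of 0.783 to 2.14. Rhox5, an X-linked reproductive homeobox gene, was found in 104 cells (4.07%), reached 32 UMIs, and had 71.4% of its UMIs in the top 1% of cells. Its excess squared CV was 40.9 in the control and 44.3 at 3 h, so this spread was present in every library. Stmn2, which encodes a microtubule regulator best known from neurons, was found in 18.4% of cells, was at 7 UMIs at the 95th percentile and reached 27. Its excess squared CV was 6.77 at 6 h, 6.57 in the control and 6.28 at 3 h. Without its own top 1% of cells Stmn2 was still at 6.20.

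Lama1 and Lamb1, which encode laminin chains of basement membrane, and Krt8, a keratin of simple epithelia, had their high values in a few cells. Lama1 ran from 0 through 0 to 56 UMIs and Lamb1 from 0 through 0 to 57. Without the top 1% of cells in each gene, the excess squared CV of Lama1 was -0.34, that of Lamb1 0.014 and that of Krt8 -0.08. The 13 cells with 4 or more primitive endoderm genes held 22.4% of all Lama1 UMIs, 18.98% of Lamb1 UMIs and 43.3% of those of Col4a1, a basement membrane collagen. Medians in these cells were only 4, 1 and 3 UMIs, while the highest counts in a cell were 56, 57 and 48. A single cell thus made up a large part of each share, and the highest sum of the 9 endoderm genes in a cell was 290 UMIs. In these 13 cells Sparc, a secreted matrix glycoprotein, ran from 1 through 13 to 182 UMIs, against a median of 2 elsewhere, and Pou5f1 from 0 through 4 to 10, against a median of 7. Gata6 and Sox17, which encode endoderm transcription factors, reached 8 and 3 UMIs in these cells, with medians of 1 and 0. Elsewhere they reached 1 and 2 UMIs. Gata4 had a median of 1 in the 13 cells, and Sox7, Pdgfra and Dab2 had medians of 0. Lama1, Col4a1, Sparc, Gata6, Sox17, Gata4, Sox7, Pdgfra and Dab2 were the 9 genes that selected these cells. Their levels and shares there describe the selection and support nothing further. Lamb1 and Pou5f1 were not among the 9 genes. The median UMI count of the 13 cells was 54799, against 46157 in the other cells, and doublets among them were not tested for.

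Among genes with a mean of at least 1 UMI, the 10 that stood furthest above the 200 genes nearest in mean were Stmn2, Sparc, S100a6, Wdcp, Gadd45g, Ctsl, Gm26917, Fabp3, Dennd5b and Gfod2. Gadd45g was 39.5 times the median of its neighbours in mean. S100a6, a calcium-binding protein gene, ran up to 61 UMIs with an excess of 3.33, and Fabp3, a fatty acid binding protein gene, up to 81 with an excess of 1.93. Ctsl, which encodes the lysosomal protease cathepsin L, reached 143 UMIs. Without its top 1% of cells, Ctsl was at 0.374 in place of 1.98 and Sparc at 0.162 in place of 3.44, whereas Gadd45g was still at 1.11. Wdcp, Dennd5b and Gfod2 were again genes of high free RNA, at 446, 1069 and 535 CPM in barcodes of 10 to 100 UMIs against 85.1, 163 and 118 CPM in cells.

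Groups of genes of like function were then set beside all genes. Among histone genes picked by their Hist names 30 of the 39 measured reached 0.5, with a median of 0.661 against 0.0831 over all genes. How completely the library method captures histone transcripts was not tested, here and for the histone pairs below. All 3 measured Id genes, inhibitors of basic helix-loop-helix factors, reached 0.5, with a median of 1.27. Of 17 measured p53 target genes 10 reached 0.5, of 53 mitosis genes 12 and of 8 immediate early genes 5. Over all measured genes the share past 0.5 was 5.12%. Pluripotency genes had 0 of 19 past 0.5, a count near that share, and a median of 0.230, which lies above the upper quartile of all genes (0.177). Host genes of snoRNAs had 0 of 13 past 0.5, also near that share, and a median of 0.0837, close to that of all genes. Ribosomal protein genes had a median of 0.0189, with 2 of 91 past 0.5. Those 2 were Rpl10l and Rpl39l, paralogs of ribosomal protein genes, found in 21.3% and 33.6% of cells.

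Co-variation was taken as Pearson's r of log2(UMIs + 1) over the 2554 cells, for the 2419 genes whose mean reached 1 UMI. The 2924571 pairs had a median r of 0.001, with the 1st percentile at -0.100 and the 99th at 0.110. An r of at least 0.3 was reached by 1116 pairs, 0.0382% of all, and an r of -0.3 or lower by 23 pairs, 0.000786%. Pairs of ribosomal protein genes made up 742 of the 1116, pairs of histone genes 88 and pairs of mitochondrial genes 42. Of the 1116 pairs, 696 also reached 0.3 in the control (of 1096 there) and 1006 at 3 h (of 1796 there). All cells share a library and depth, and gene pairs share cells, so these r values are descriptions of 1 library.

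**Figure D3:**
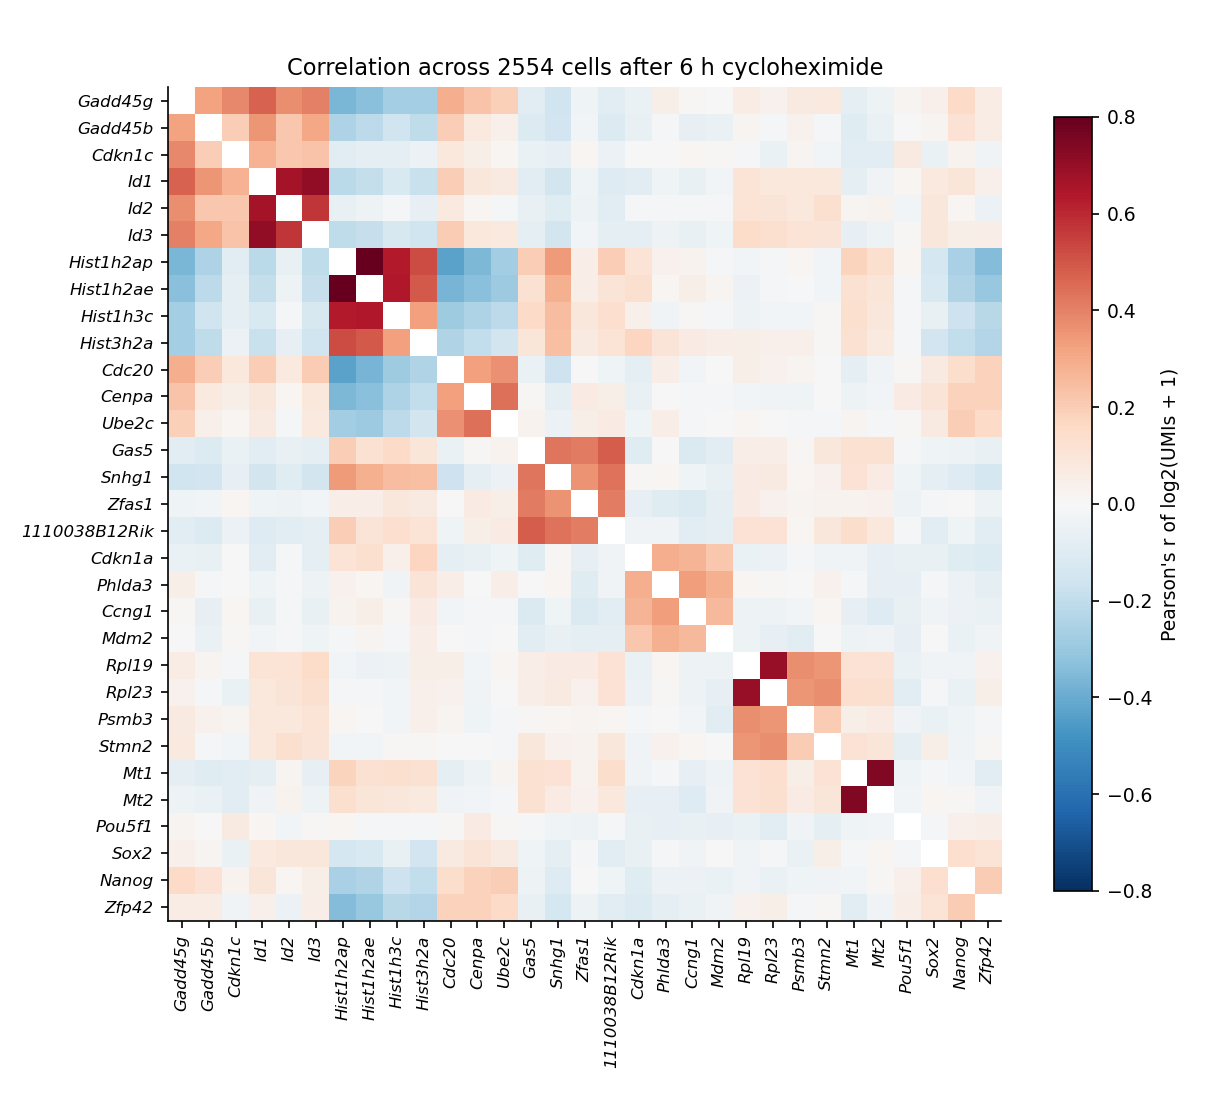
Pearson's r of log2(UMIs + 1) across 2554 cells at 15000 UMIs (colour, red above 0 and blue below) for 31 genes after 6 h of cycloheximide. Red blocks join Gadd45g with Id1 to Id3, the histone genes, the mitosis genes Cdc20, Cenpa and Ube2c, Gas5 with other snoRNA host genes, the p53 targets, and Rpl19 with Rpl23, while histone genes are blue against Gadd45g, Cdc20 and Zfp42.

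Gadd45g was tied to the Id genes. Cells ran from 0 through a median of 2 to 29 UMIs for Id1, from 0 through 2 to 24 for Id2 and from 0 through 1 to 25 for Id3. The Id genes, which are classical targets of BMP signalling and whose proteins sequester basic helix-loop-helix factors, lie on chromosomes 2, 12 and 4. They varied together, with r of 0.71 (Id1 and Id3), 0.67 (Id1 and Id2) and 0.57 (Id2 and Id3). The 5 genes most like Gadd45g across cells were Id1 (r 0.47), Id3 (0.40), the cell cycle inhibitor gene Cdkn1c (0.39), Id2 (0.37) and Gadd45b (0.32). Together with Ckb, a creatine kinase gene, these formed a group of 7 genes linked in a chain of pairs at r of at least 0.3. In 614 cells without a Gadd45g UMI the median of Id1 was 0, with quartiles of 0 and 2. In 351 cells with 10 or more Gadd45g UMIs it was 7, with quartiles of 3 and 12.5. The median of Pou5f1 was 7 in both sets of cells. Median depth before thinning was 44207 and 42091 UMIs in these sets.

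The same pairs had lower r in the control library. Id1 and Id3 had r of 0.31 in the control and 0.76 at 3 h, and Gadd45g and Id1 had -0.005 in the control and 0.34 at 3 h. Control cells had means of 0.022 UMIs for Gadd45g, 0.670 for Id3 and 0.487 for Id2, against 4.44, 2.88 and 2.50 at 6 h, and counting noise lowers r more at low means. Id1 had similar means in the control (3.67) and at 6 h (3.97), and an excess squared CV of 0.844 and 1.27. No test of a difference between libraries was possible with 1 library each.

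Promoters are shown for the co-varying genes Id2, Id3 and Gadd45g and, below, for the metallothionein pair, since these genes vary together across cells. They are 300 bases long, 250 before to 50 after the start, from RefSeq on GRCm38.p6, and 5 of the 6 genes looked up had an entry. Id2 is chr12:25096043-25096342 on the minus strand, with CCAAT (either strand) in capitals. Id3 is chr4:136143572-136143871 on the plus strand, with GGGCGG in capitals. Gadd45g is chr13:51846425-51846724 on the plus strand, with TATAAA and also CCAAT in capitals.
Id2: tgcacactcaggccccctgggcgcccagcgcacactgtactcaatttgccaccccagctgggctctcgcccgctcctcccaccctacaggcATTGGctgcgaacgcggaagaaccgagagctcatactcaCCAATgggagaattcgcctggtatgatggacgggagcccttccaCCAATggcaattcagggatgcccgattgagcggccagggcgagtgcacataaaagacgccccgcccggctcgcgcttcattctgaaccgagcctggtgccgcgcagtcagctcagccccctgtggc
Id3: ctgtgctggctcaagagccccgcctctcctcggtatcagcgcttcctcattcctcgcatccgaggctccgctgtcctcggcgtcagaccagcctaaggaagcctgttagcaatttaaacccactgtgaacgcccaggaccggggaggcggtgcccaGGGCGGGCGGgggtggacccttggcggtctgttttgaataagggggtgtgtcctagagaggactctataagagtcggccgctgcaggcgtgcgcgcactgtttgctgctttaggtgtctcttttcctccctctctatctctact
Gadd45g: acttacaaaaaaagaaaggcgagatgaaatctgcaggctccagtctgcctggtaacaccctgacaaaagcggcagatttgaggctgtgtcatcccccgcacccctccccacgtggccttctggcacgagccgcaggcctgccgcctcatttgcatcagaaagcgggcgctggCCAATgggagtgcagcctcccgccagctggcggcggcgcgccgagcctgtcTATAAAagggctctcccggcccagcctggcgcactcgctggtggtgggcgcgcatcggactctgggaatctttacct
The motifs searched, on both strands, were TATAAA for the TATA box, CCAAT for the CCAAT box, GGGCGG for the GC box, TGACTCA for the AP-1 site and TGACGTCA for the cyclic AMP response element. The Id2 window held CCAAT 3 times and GGGCGG 1 time, the Id3 window GGGCGG 2 times (overlapping by 2 bases), and the Gadd45g window 1 match each of the TATA box and the CCAAT box. Of 32851 such windows, 37.4% held the CCAAT box, 35.7% the GC box and 13.6% the TATA box. None of the 3 windows held the AP-1 site (present in 5.202% of all windows) or the cyclic AMP response element (1.79%), and no motif of the 5 was present in all 3.

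The histone genes Hist1h2ap and Hist1h2ae had their lowest r with Gadd45g and with the mitosis genes Cdc20 and Cenpa. Both encode histone H2A and are expressed in S phase, and together they gave the highest r of all pairs, 0.81. Reads of near-identical histone genes may have been split or shared by the counting, so this pair is uncertain. Hist1h2ap ran from 0 through 25 to 111 UMIs, and was at 1 UMI at the 5th percentile and 57 at the 95th. The lowest r of all pairs was -0.43, between Hist1h2ap and Cdc20, an activator of the anaphase-promoting complex, followed by -0.37 for Hist1h2ae and Cdc20, -0.37 for Hist1h2ap and Gadd45g and -0.36 for Hist1h2ap and Cenpa, the centromeric histone gene. Hist1h2ap was part of 8 of the 23 pairs at -0.3 or lower, and the nuclear RNA Malat1 of 7. The median of Hist1h2ap was 35 UMIs in cells without Gadd45g and 9 in cells with 10 or more Gadd45g UMIs. Zfp42, which encodes the stem cell factor Rex1, had r of -0.35 with Hist1h2ap, against 0.03 in the control and -0.06 at 3 h. The Hist1h2ap and Gadd45g pair had -0.07 in the control and -0.25 at 3 h, while Hist1h2ap and Cdc20 had -0.33 and -0.39.

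Hist3h2a and Hist1h2bc, on chromosomes 11 and 13, had r of 0.58, against 0.08 in the control and 0.40 at 3 h. Hist3h2a ran from 0 through 2 to 44 UMIs with a mean of 3.32, against 0.086 in the control. Hist1h2bc ran up to 109 UMIs with a mean of 11.96, against 0.680 in the control. Over the list, the median r between histone genes of mean 1 or more was 0.39, and 88 of 120 pairs reached 0.3. The summed histone list had r of -0.36 with the summed Gadd45 list and -0.30 with the summed immediate early list. With the summed mitosis list it had r of -0.05, so the low r of Cdc20 and Cenpa did not extend to that list as a whole.

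Gas5 varied together with other snoRNA host genes across cells. The excess squared CV of Gas5 (0.106) was 3.92 times the median of the genes nearest in mean, that of 1110038B12Rik 3.56 times, Zfas1 3.31, 2410006H16Rik 2.83, and Snhg1 and Snhg12 2.30 times, all of them below 0.5. Its 5 highest partners were 1110038B12Rik (r 0.48), 2410006H16Rik (0.47), Snhg1 (0.43), Zfas1 (0.41) and Snhg12 (0.34), on chromosomes 17, 11, 19, 2 and 4. Their r with Gas5 was 0.04 to 0.08 in the control and 0.28 to 0.43 at 3 h. Snhg1 had a mean of 24.8 UMIs at 6 h, 17.1 at 3 h and 1.80 in the control, and Gas5 15.1, 11.7 and 2.65, so the control values come from far fewer molecules. The partners of lowest r were Calr (-0.23), Hsp90b1 (-0.20) and Pdia3 (-0.18), which encode chaperones and a disulfide isomerase of the endoplasmic reticulum.

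Cdkn1a varied with other p53 targets. Its highest partners were Phlda3 (r 0.29), Ccng1 (0.27), Mdm2 (0.21), Pmm1 (0.21) and Psrc1 (0.21), and Phlda3 in turn had 0.33 with Ccng1 and 0.32 with Psrc1. Phlda3 encodes an Akt inhibitor, Ccng1 cyclin G1 and Mdm2 the ubiquitin ligase of p53. These genes had means of 0.895 to 1.40 UMIs (Cdkn1a, Phlda3, Ccng1, Psrc1), and after counting variance was taken out the pair of Cdkn1a and Phlda3 had 0.71, that of Cdkn1a and Ccng1 0.64 and that of Ccng1 and Phlda3 0.90. In the control Cdkn1a and Phlda3 had r of 0.21 and at 3 h 0.41. Pou5f1 had no partner above an uncorrected r of 0.14 (Tdh, threonine dehydrogenase), and the 6 pairs among the 4 marker genes ran from -0.10 to 0.02. With counting variance taken out, these 6 pairs ran from -0.23 (Pou5f1 and Cdkn1a) to 0.03 (Gadd45g and Cdkn1a). Pou5f1 then had 0.18 with Zfp42, 0.13 with Nanog and -0.07 with Sox2. Pluripotency genes as a list had a median r of 0.05 over 105 pairs and 0 pairs at 0.3.

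The metallothionein genes Mt1 and Mt2, which encode metal-binding proteins and lie 6.42 kb apart on chromosome 8, had r of 0.74, against 0.66 in the control and 0.68 at 3 h. Mt1 ran from 0 through a median of 16 to 184 UMIs, and Mt2 from 0 through 17 to 103. Their promoters on GRCm38.p6 are chr8:94178839-94179138 for Mt1 and chr8:94172368-94172667 for Mt2, both on the plus strand. Capitals mark TGCNCNC on either strand, a motif chosen after the pair was seen. It is a looser pattern than the core of the metal response element, so a match need not be such a core.
Mt1: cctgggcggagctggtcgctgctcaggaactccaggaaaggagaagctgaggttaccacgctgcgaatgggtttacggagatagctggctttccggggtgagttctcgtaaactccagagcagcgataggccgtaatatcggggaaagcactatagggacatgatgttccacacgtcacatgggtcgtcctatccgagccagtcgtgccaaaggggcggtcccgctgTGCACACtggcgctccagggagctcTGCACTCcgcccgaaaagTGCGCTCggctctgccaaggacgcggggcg
Mt2: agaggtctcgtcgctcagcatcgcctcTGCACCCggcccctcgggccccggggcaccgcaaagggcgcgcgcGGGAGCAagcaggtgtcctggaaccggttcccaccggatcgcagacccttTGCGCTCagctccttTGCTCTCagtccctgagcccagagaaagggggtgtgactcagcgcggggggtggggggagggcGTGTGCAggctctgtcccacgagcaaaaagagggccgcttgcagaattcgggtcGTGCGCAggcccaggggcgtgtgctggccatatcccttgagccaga
The Mt1 window held TGCNCNC 3 times and the Mt2 window 6 times. Over 32851 windows, 51.0% held it at least 1 time, 7.10% at least 3 times and 0.697% at least 5 times.

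Mitochondrial transcripts also varied together, with r of 0.76 for mt-Co2 and mt-Co3 and a median of 0.40 over the list. Given the UMI total and the mitochondrial share of each cell, the pair of mt-Co2 and mt-Co3 had a partial r of 0.23, and that share is itself the sum of such genes. Ribosomal protein genes, whose median r was 0.21 over 3240 pairs, stood opposite Malat1, with r of -0.35 for Rps15a and -0.34 for Rpl14. The summed ribosomal protein and nuclear long noncoding RNA lists had r of -0.43. Outside these lists, Icam1 and Nfkbia, both NF-kappaB targets, had r of 0.35 at 6 h, 0.03 in the control and 0.33 at 3 h.

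A small group of cells had more RNA from the whole of chromosome 1. The share of a cell's UMIs from chromosome 1 had a median of 4.94%, and 111 cells (4.35%, 3.59 to 5.21%) were at 1.25 times that median or more. Of these, 100 lay between 1.3 and 1.6 times, with 13 cells just below the limit at 1.2 to 1.25 and 9 just above it at 1.25 to 1.3. The control had 83 such cells (3.80%) and the 3 h library 81 (4.66%). In the 111 cells all 120 chromosome 1 genes of mean 1 or more were higher, with a median ratio of 1.41 to the other cells, and in 8 consecutive parts of the chromosome the median ratio was 1.35 to 1.51. As the cells were chosen by their chromosome 1 share, a raised level of its genes is set by that choice, and the values describe how it was spread along the chromosome. Genes of other chromosomes had a median ratio of 0.965. Gas5 and Phlda3 lie on chromosome 1, and without the 111 cells the excess squared CV of Gas5 was 0.0868 in place of 0.106. The sums over the front and the back part of the chromosome had r of 0.58 across cells and of 0.20 without the 111 cells. Median depth was 44526 UMIs in the 111 cells and 46306 in the others.

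**Figure D4:**
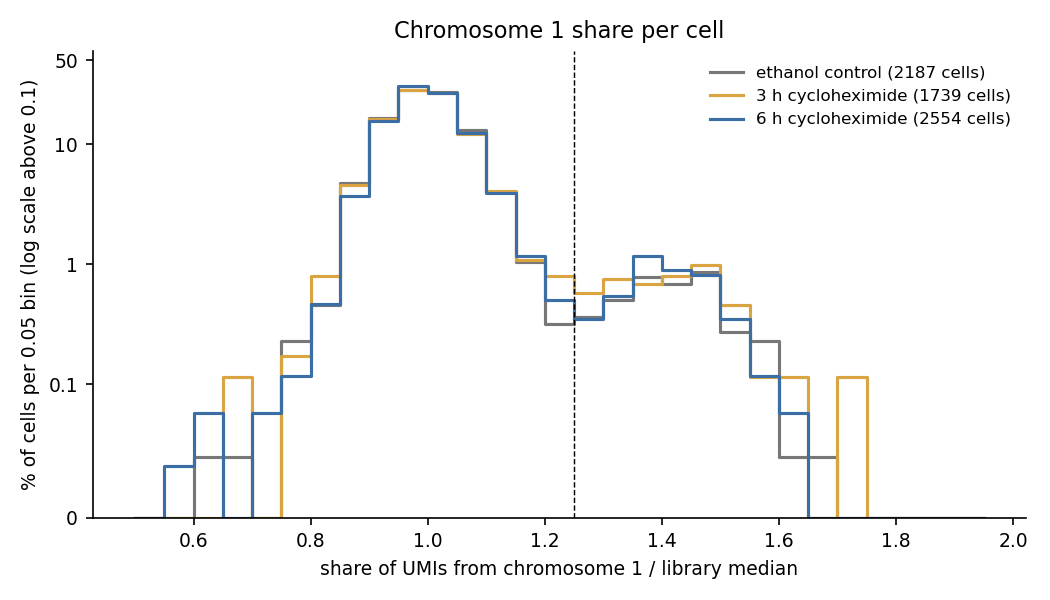
Share of UMIs from chromosome 1 divided by the library median (horizontal axis) and percent of cells in each bin of 0.05 (vertical axis, log scale above 0.1) in the 3 libraries; the dashed line is 1.25. Each library has a main peak at 1 and a second, low one between 1.3 and 1.6.

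These cells also differed in genes elsewhere. Rhox5, on the X chromosome, was found in 22 of the 111 cells (19.8%, 12.9 to 28.5%) and in 82 of the other 2443 (3.36%, 2.68 to 4.15%), and 37.7% of its UMIs were in the 111 cells. The control gave 20.5% of 83 cells and 4.94% of the others, and the 3 h library 8.64% of 81 cells (3.55 to 16.998%) and 3.86% of the others (2.99 to 4.90%), where the intervals overlap. Stmn2 reached 3 or more UMIs in 45 of the 111 cells (40.5%, 31.3 to 50.3%) and in 11.8% of the others. The control gave 43.4% and 11.98%, and the 3 h library 43.2% and 12.1%. Ddx3y, an RNA helicase gene of the Y chromosome, had a mean of 0.288 UMIs in the 111 cells and 1.598 in the others, and Eif2s3y, also on the Y chromosome, 0.252 and 1.12. All Y chromosome genes together had a median of 25 UMIs in the 111 cells and 32 in the others. Ddx3y and Eif2s3y thus gave few of these UMIs, and the Y chromosome genes that gave the others were not examined. In the control the medians were 4 UMIs in the 83 cells and 7 in the others. In both sets at 6 h 0 cells were without a UMI from the Y chromosome, which says nothing about Ddx3y or Eif2s3y alone. Without the 111 cells the excess squared CV of Krt8 was 2.33 in place of 8.69. Krt8 had a mean of 0.217 UMIs, and its highest count, 28, was in 1 of the 13 cells with primitive endoderm genes. A single such count weighs heavily at that mean, and its part in the lower Krt8 value was not tested. The excess squared CV of Rhox5 without the 111 cells was 69.99 in place of 54.2. These genes were singled out after their values were seen.

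Stmn2 itself marked a set of cells that was present in all 3 libraries and that overlapped with the cells of high chromosome 1 share. At 6 h, 2083 cells had 0 Stmn2 UMIs, 138 had 1 or 2 and 333 (13.0%) had 3 or more, while the control had 13.2% and the 3 h library 13.6% at 3 or more. Rpl23 and Rpl19, ribosomal protein genes 249 kb apart on chromosome 11, had means of 88.0 and 85.2 UMIs in the 333 cells and 63.7 and 63.7 in the cells without Stmn2, ratios of 1.38 and 1.34. Psmb3, a proteasome subunit gene of the same stretch, had a ratio of 1.31. Rpl19 and Rpl23 correlated with each other at r of 0.70, against 0.72 in the control and 0.71 at 3 h, and with Stmn2 at 0.35 and 0.37. Median depth before thinning was 46484 UMIs in the 333 cells and 45802 in the cells without Stmn2. Spearman's rho was lower, 0.48 for Rpl19 and Rpl23. Lasp1, which lies between these genes, had r of only 0.02 with each at a mean of 0.966 UMIs.

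Levels in the 333 cells differed from those in cells without Stmn2 over long stretches of chromosomes 8 and 14. In windows of 10 Mb holding at least 8 genes, 165 of 170 windows had a median ratio of 0.9 to 1.1. The 3 above that range were all on chromosome 8, at 20 to 30, 40 to 50 and 60 to 70 Mb, with ratios of 1.19, 1.19 and 1.21. The 2 below it were on chromosome 14, at 60 to 70 and 70 to 80 Mb, with 0.886 and 0.872. Chromosome 1 windows ran from 0.998 to 1.09, and the 333 cells included 45 of the 111 cells of high chromosome 1 share. The part of that overlap in the ratios was not tested. From 20 to 70 Mb of chromosome 8, 55 of 57 genes were higher in the 333 cells, with a median ratio of 1.19. From 60 to 80 Mb of chromosome 14, 33 of 38 genes were lower, with a median of 0.881, among them Tpt1 (67.9 against 76.5 UMIs). The control gave medians of 1.12 and 0.878 for these stretches, and the 3 h library 1.18 and 0.877. Both stretches were set after the windows were seen, so the raised and lowered levels in them at 6 h describe that choice. Elsewhere 1756 of 4091 genes were higher and 2335 lower, with a median ratio of 0.987. Across all cells at 6 h the sums over the stretches of chromosomes 8 and 14 had r of -0.42 with each other. Zfp42 lies in the chromosome 8 stretch. The windows were examined after Stmn2 was seen to vary with Rpl19 and Tpt1, and copy number was not measured.

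**Figure D5:**
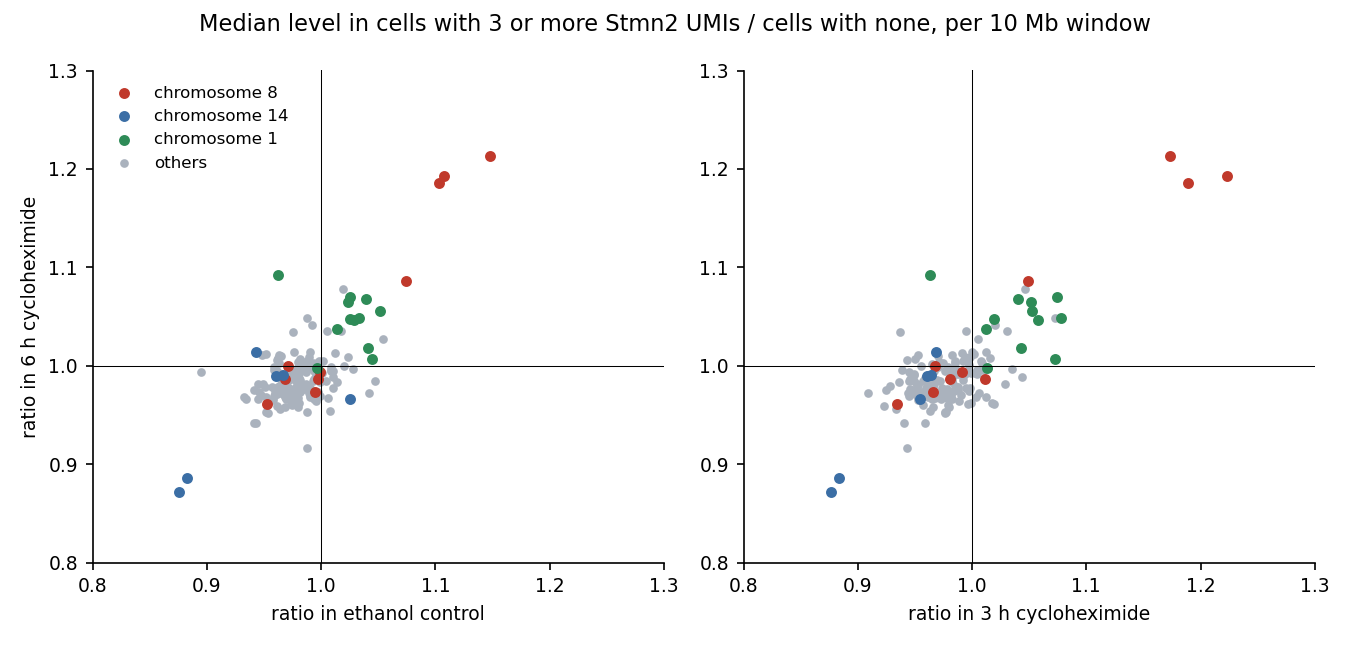
Median ratio of gene levels in cells with 3 or more Stmn2 UMIs to cells with none, 1 point per 10 Mb window (170 windows), at 6 h of cycloheximide (vertical axes) against the ethanol control (left) and 3 h of cycloheximide (right). Windows of chromosome 8 reach 1.21 and those of chromosome 14 fall to 0.872 at 6 h, and the same windows stand apart in the other libraries.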

How the data were processed

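Cells were profiled by 3' single-cell RNA sequencing (10x Genomics, v3 chemistry), and the deposited matrices hold raw UMI counts per gene and barcode. Per the submitters' processing notes, the authors used Cell Ranger 4.0.0 and mm10, while the gene annotation is not given in the sources used here. All listed barcodes were read, members were selected by the UMI and mitochondrial limits, and doublets were not called. Each member was thinned without replacement to 15000 UMIs. Gene positions came from GENCODE M21 (GRCm38), matched by identifier for 32235 of 32285 genes, and 78 entries that share a symbol were kept apart by identifier. The genes named were the 4 markers, the 20 highest in excess squared CV, the 10 highest against the 200 genes nearest in mean, the 15 highest and 10 lowest pairs, the 5 highest and 3 lowest partners of each marker, and members of 28 gene lists. Not every gene that this rule selects is reported here. Other genes and pairs, and the cells split by chromosome 1 share or by Stmn2, were chosen after their values were seen. Members and lists were chosen with earlier results of these data known. Intervals are 95% exact Clopper-Pearson intervals and cover counting error only. The measures were tested on simulated data. Python 3.11.15, numpy 2.4.6, scipy 1.17.1, pandas 2.3.3, networkx 3.6.1 and matplotlib 3.10.9 were used.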

Additional observations from a re-analysis of the deposited data

How the results depend on the processing

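The median excess squared CV, 0.0831 as reported, was 0.0759 with the 2343 deepest cells thinned to a higher depth, 0.0883 without cells above 2 times the median UMIs, 0.0750 with a UMI minimum of 25000, 0.0644 with a mean floor of 0.5 and 0.108 with a floor of 0.05. The 354 genes past 0.5 became 130 and 1435 with those floors, which admit fewer or more rare genes. The 1116 pairs at r of 0.3 or more became 1806 at that higher depth, 6604 with scaling in place of thinning, 554 with a UMI minimum of 25000, 478 by Spearman's rho and 737 as partial r given UMI total and mitochondrial share. The 23 pairs at -0.3 or lower became 113, 1482 and 13 under the first 3 of these settings. The cause of these changes was not tested. Without each gene's own top 1% of cells, excess squared CV turned negative for Lama1 (-0.336), Krt8 (-0.0837) and Gmcl1 (-0.141). In that setting 26 of 34 named genes stayed past 0.5, whereas all 34 did under every other setting run. Dropping cells by the gene's own count in part sets such a fall. Of 55 named pairs past 0.3 in size, all kept their sign under the 15 settings that gave all 55 a value, and 47 to 55 stayed past 0.3, with the fewest as partial r. Counting cells of high chromosome 1 share gave 105 to 118 cells. With 1 library per condition, no value here separates condition from culture or preparation. No paired analysis was possible because each condition was 1 library.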

Other observations

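Correlations across cells were also read by the distance between genes. With histone and mitochondrial genes left out, 3403 pairs within 500 kb had a median r of 0.0103 at 6 h, a 99th percentile of 0.152 and 7 pairs (0.206%) at 0.3 or more, while 2699335 pairs on different chromosomes had a median of 0.00105, a 99th percentile of 0.109 and 879 pairs (0.0326%) at 0.3 or more. A stretch of chromosome 4 with 17 measured genes, zinc finger genes such as Zfp990 and Zfp534 among them, had a median r of 0.0861 over 136 pairs, against 0.0498 in the control and 0.0774 at 3 h, and none of its pairs reached 0.3. Chromosome 19 made up at least 1.25 times its median share in 54 cells (2.11%, 1.59 to 2.75%), against 40 control cells (1.83%) and 42 cells at 3 h (2.42%). The sums over its front and back parts had r of 0.20 at 6 h. For chromosome 13 the same count at 6 h was 59 cells (2.31%), with r of -0.20 between its parts. Apart from chromosome 1, r between parts was higher for chromosomes X (0.39), 7 (0.33), 2 (0.33) and 11 (0.24).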
